A study of Mus musculus with 9 samples.

Results

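The D cyclins, their kinases, the retinoblastoma family and the E cyclins were examined in mouse medulloblastoma of the Sonic Hedgehog subgroup. The members were the 10 genes Ccnd1, Ccnd2, Ccnd3, Cdk4, Cdk6, Rb1, Rbl1, Rbl2, Ccne1 and Ccne2, taken by symbol from 23360 listed genes. They were chosen with earlier results of these data known, so counts of members called are a description and no independent support. All 10 are reported whatever their values. All 10 passed the filter on low values, an FPKM (fragments per kilobase and per-million) of at least 1 in at least 3 libraries, as did 14337 genes in all. Cdk6 passed through its tumour libraries alone. Ribosome-depleted total RNA was sequenced from 3 groups of 3 libraries. A1G tumours were primary tumours of mixed-strain mice with the genotype Math1-cre;A1G;Ptch1+/-, in which Cre is made under control of the Math1 (Atoh1) gene of granule neuron progenitors. Ptch1 tumours were primary tumours of mixed-strain mice with the genotype Ptch1+/- alone, so that all tumours shared 1 disrupted Ptch1 copy. The series text names ATOH1 as a driver in the A1G model, and the labels do not describe the A1G allele further. Cerebellum came from wild-type adult C57BL/6 mice. Strain, genotype and tissue differed together in every comparison with cerebellum and cannot be told apart there. The labels do not say whether the replicates of a group were separate animals, so the p-values measure the spread between libraries.

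D cyclins are the regulatory subunits that switch on the kinases Cdk4 and Cdk6 when a cell is told to divide. The active kinases phosphorylate Rb and its relatives p107 and p130, which otherwise hold E2F transcription factors in check, and E2F in turn raises the E cyclins that carry a cell into S phase. In the young cerebellum, Sonic Hedgehog from Purkinje cells keeps granule neuron progenitors dividing through Mycn and D cyclins, and tumours with reduced Ptch1 arise from these progenitors. Most cells of the adult cerebellum are neurons that no longer divide.

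Promoter sequences of the RefSeq annotation on GRCm38.p6 were found for 6 members, from 250 bases before to 50 bases after a start, with a pair of windows for Ccnd3. They were searched on both strands for the E-box CACGTG, the word of the Myc family, which reads the same on both strands, for the E2F words TTTCCCGC, TTTCGCGC, TTTGCCGC and TTTGGCGC, and for the Gli word TGGGTGGTC. Shown are the 3 windows with a match, with the matches in capitals and none of them overlapping. Cdk4 lies at chr10:127063285-127063584 on the plus strand, Cdk6 at chr5:3343643-3343942 on the plus strand and Rbl1 at chr2:157204485-157204784 on the minus strand, each read 5′ to 3′ along its gene.
Cdk4: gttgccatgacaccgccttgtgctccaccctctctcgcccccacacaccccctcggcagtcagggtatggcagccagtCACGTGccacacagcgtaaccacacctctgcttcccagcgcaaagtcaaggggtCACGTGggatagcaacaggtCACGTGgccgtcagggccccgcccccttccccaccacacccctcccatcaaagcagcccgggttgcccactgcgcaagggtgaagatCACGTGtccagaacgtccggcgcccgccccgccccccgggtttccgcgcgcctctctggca
Cdk6: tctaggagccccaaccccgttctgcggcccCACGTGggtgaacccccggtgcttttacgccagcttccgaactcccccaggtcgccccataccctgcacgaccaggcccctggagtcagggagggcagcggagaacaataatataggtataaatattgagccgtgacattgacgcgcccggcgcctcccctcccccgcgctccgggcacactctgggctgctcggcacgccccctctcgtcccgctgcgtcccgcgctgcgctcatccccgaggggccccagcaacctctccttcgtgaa
Rbl1: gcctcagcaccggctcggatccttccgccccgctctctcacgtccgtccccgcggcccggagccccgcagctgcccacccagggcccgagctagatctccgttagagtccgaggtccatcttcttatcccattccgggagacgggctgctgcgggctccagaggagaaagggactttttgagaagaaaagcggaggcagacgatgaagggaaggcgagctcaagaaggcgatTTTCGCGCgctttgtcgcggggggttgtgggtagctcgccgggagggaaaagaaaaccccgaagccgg
The Cdk4 window held 4 E-boxes, with first bases at -172, -118, -98 and -11, where -1 is the last base before the start. Of all 32851 windows, 7.15% held an E-box and 0.0244% held 4 or more. The Cdk6 window held 1 E-box at -220, and this window lies inside the span that GENCODE M21 gives the gene, downstream of the first GENCODE start. The Rbl1 window held the E2F word TTTCGCGC at -18. An E2F word was found in 2.26% of all windows and the Gli word in 0.253%. These letters were not found in the windows of Ccnd3, Ccne1 and Rbl2. A match is a stretch of letters and no measurement of binding.

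The first comparison asked which of the 10 genes stood higher or lower in each tumour kind than in normal cerebellum. In A1G tumours 5 members were higher than in cerebellum and 0 lower past the test (quasi-likelihood test of edgeR, Benjamini-Hochberg adjusted p under 0.05), where 16.3% of all tested genes were higher and 16.1% lower. In Ptch1 tumours 6 members were higher and 0 lower, where 20.2% of all tested genes were higher and 19.7% lower. The 5 shared members were Ccnd1, Ccnd2, Cdk4, Cdk6 and Rbl1, and Ccne2 was added in Ptch1 tumours. All called members were also without overlap between libraries, in a direction that 22.5% of all tested genes showed in A1G and 27.2% in Ptch1 tumours. The opposite gap, lower in every tumour library, was seen for 0 members in A1G tumours, where 23.4% of all tested genes showed it, and for Rbl2 in Ptch1 tumours. Both comparisons used the same 3 cerebellum libraries. The median log2 difference of the 10 members was 1.90 in A1G and 2.22 in Ptch1 tumours, against 0.03 and 0.00 for all tested genes. Levels are normalised counts-per-million (CPM), scaled over all 9 libraries. Library totals ranged from 2350941 to 9290237 fragments, so that 3 fragments were worth 0.337 to 1.23 CPM.

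**Figure D1:**
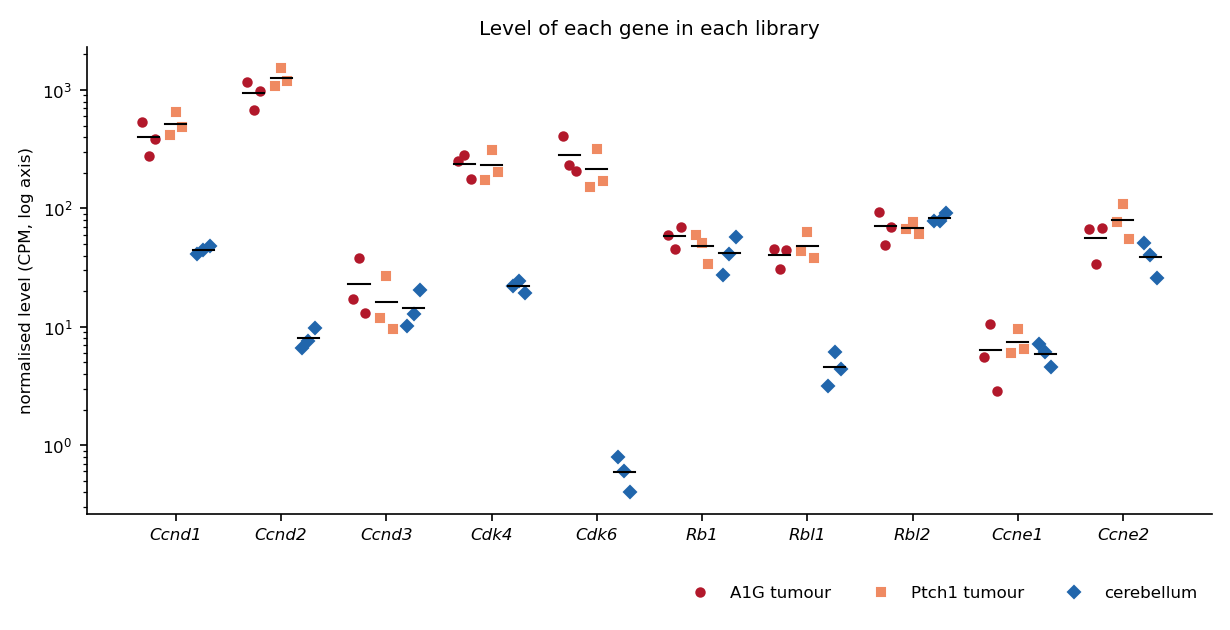
Normalised level (CPM, logarithmic axis) of each of the 10 genes in every library of A1G tumours, Ptch1 tumours and cerebellum, 3 points per group with a bar at the mean. Ccnd1, Ccnd2, Cdk4, Cdk6 and Rbl1 lie above every cerebellum library in all 6 tumour libraries, and Cdk6 falls below 1 CPM in cerebellum.

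Of the D cyclins, Ccnd2 had the largest difference from cerebellum. Ccnd2 encodes cyclin D2 (chromosome 6, 127125162 to 127152193, mm10, minus strand). It stood at 1178, 673 and 976 CPM across A1G tumours, at 1091, 1529 and 1196 CPM across Ptch1 tumours and at 6.57, 7.60 and 9.78 CPM in cerebellum. The lowest tumour library was far above the highest cerebellum library, while the tumour kinds overlapped. The log2 difference from cerebellum was 6.87 (SE 0.38) in A1G tumours, a 117-fold higher level (edgeR, adjusted p = 6.63e-07). In Ptch1 tumours it was 7.30 (SE 0.38), or 158-fold (edgeR, adjusted p = 2.06e-07). Counted from the largest increase, Ccnd2 was number 86 of 14337 genes in A1G and number 88 in Ptch1 tumours.

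Ccnd1, which encodes cyclin D1 (chromosome 7, 144929931 to 144939925, minus strand), had a higher base in cerebellum. Its levels were 542, 277 and 388 CPM across A1G tumours, 421, 647 and 486 CPM across Ptch1 tumours and 41.5, 44.7 and 48.1 CPM in cerebellum. The cerebellum libraries lay close together and below all 6 tumour libraries. The difference was 3.17 (SE 0.32; edgeR, adjusted p = 1.89e-05) in A1G and 3.53 (SE 0.32; edgeR, adjusted p = 6.57e-06) in Ptch1 tumours, or 8.97-fold and 11.6-fold.

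Ccnd3, the gene of cyclin D3 (chromosome 17, 47505051 to 47599691, plus strand), did not pass the test in either tumour kind. It was at 17.3, 38.4 and 13.2 CPM across A1G tumours, at 11.9, 26.8 and 9.58 CPM across Ptch1 tumours and at 10.2, 12.8 and 20.6 CPM in cerebellum. All 3 groups overlapped. The log2 difference from cerebellum was 0.66 (SE 0.51; edgeR, adjusted p = 0.356) in A1G and 0.17 (SE 0.51; edgeR, adjusted p = 0.820) in Ptch1 tumours. Replicate 2 was the highest library of either tumour kind for this gene, and the difference was 0.06 without A1G replicate 2 in A1G tumours and -0.43 without Ptch1 replicate 2 in Ptch1 tumours.

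The kinase genes were both higher in tumours. Cdk4 (chromosome 10, 127063534 to 127067920, plus strand), whose promoter with 4 E-boxes is given above, stood at 251, 283 and 178 CPM across A1G tumours, at 175, 313 and 205 CPM across Ptch1 tumours and at 22.1, 24.6 and 19.2 CPM in cerebellum. Every tumour library was above every cerebellum library. The difference was 3.44 (SE 0.32; edgeR, adjusted p = 1.06e-05) in A1G and 3.40 (SE 0.32; edgeR, adjusted p = 8.12e-06) in Ptch1 tumours, 10.8-fold and 10.5-fold.

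Cdk6 (chromosome 5, 3341485 to 3531008, plus strand) was close to the limit of detection in cerebellum. Its levels were 411, 233 and 206 CPM across A1G tumours and 151, 319 and 171 CPM across Ptch1 tumours. In cerebellum they were 0.788, 0.608 and 0.399 CPM, which is 3, 2 and 2 fragments. Summed over libraries there were 2362 fragments in A1G tumours against 7 in cerebellum, a depth-adjusted ratio of 489 with a 95% interval of 237 to 1218. For Ptch1 tumours there were 3945 against 7, a ratio of 429.6 with an interval of 208 to 1069. These exact Clopper-Pearson intervals cover counting error only. The fitted log2 difference, which at so few fragments depends on the prior count of the fit, was 8.85 (SE 0.55; edgeR, adjusted p = 7.82e-07) in A1G and 8.45 (SE 0.54; edgeR, adjusted p = 5.52e-07) in Ptch1 tumours. By that value Cdk6 was number 14 of 14337 genes in A1G and number 42 in Ptch1 tumours, counted from the largest increase.

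In the retinoblastoma family, Rbl1 alone differed past the test. Rbl1 encodes p107 (chromosome 2, 157145893 to 157204534, minus strand), and its promoter holds the E2F word shown above. It was at 45.3, 30.6 and 44.4 CPM across A1G tumours, at 43.3, 63.0 and 37.9 CPM across Ptch1 tumours and at 3.15, 6.08 and 4.39 CPM in cerebellum. No tumour library came near the cerebellum range. The difference was 3.14 (SE 0.37; edgeR, adjusted p = 7.12e-05) in A1G and 3.41 (SE 0.37; edgeR, adjusted p = 2.77e-05) in Ptch1 tumours, 8.82-fold and 10.6-fold.

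Rb1 encodes the retinoblastoma protein itself (chromosome 14, 73183673 to 73325822, minus strand). Its levels were 59.3, 45.8 and 70.3 CPM across A1G tumours, 59.5, 50.7 and 33.7 CPM across Ptch1 tumours and 27.3, 41.4 and 56.9 CPM in cerebellum. The groups overlapped, with differences of 0.48 (SE 0.33; edgeR, adjusted p = 0.302) in A1G and 0.20 (SE 0.33; edgeR, adjusted p = 0.667) in Ptch1 tumours. Rbl2, the gene of p130 (chromosome 8, 91070057 to 91123844, plus strand), which is known as the family member of resting cells, was at 94.0, 49.0 and 69.1 CPM across A1G tumours, at 66.4, 76.8 and 61.3 CPM across Ptch1 tumours and at 78.3, 77.8 and 92.0 CPM in cerebellum. All Ptch1 libraries were below all cerebellum libraries, though narrowly, and 27.0% of all tested genes showed such a gap in that direction. Its difference was -0.23 (SE 0.28; edgeR, adjusted p = 0.565) in A1G and -0.28 (SE 0.27; edgeR, adjusted p = 0.453) in Ptch1 tumours.

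The E cyclins activate Cdk2 at the entry to S phase. Ccne2, cyclin E2 (chromosome 4, 11191351 to 11204779, plus strand), was at 67.5, 33.7 and 67.9 CPM across A1G tumours, at 77.4, 108 and 55.2 CPM across Ptch1 tumours and at 50.9, 40.7 and 25.8 CPM in cerebellum. The A1G libraries overlapped cerebellum and the Ptch1 libraries did not. The difference was 0.52 (SE 0.37; edgeR, adjusted p = 0.307) in A1G tumours. In Ptch1 tumours it was 1.04 (SE 0.37; edgeR, adjusted p = 0.0397), 2.06-fold, with a 95% interval of 0.24 to 1.84 on the log2 scale. That call ended when any of 4 libraries was left out: without Ptch1 replicate 1 or 2 the adjusted p was 0.0781 or 0.159, and without cerebellum replicate 2 or 3 it was 0.0923 or 0.125 (edgeR). The difference between A1G and Ptch1 tumours in this gene did not pass the test (edgeR, adjusted p = 0.642), so the tumour kinds are not shown to differ in Ccne2.

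Ccne1, cyclin E1 (chromosome 7, 38097984 to 38107534, minus strand), was the scarcest member in both tumour kinds. It stood at 5.53, 10.6 and 2.88 CPM across A1G tumours, at 5.95, 9.66 and 6.51 CPM across Ptch1 tumours and at 7.09, 6.08 and 4.59 CPM in cerebellum. The groups overlapped. Differences were 0.12 (SE 0.54; edgeR, adjusted p = 0.888) in A1G and 0.33 (SE 0.53; edgeR, adjusted p = 0.650) in Ptch1 tumours. The exact permutation test of group means, two-sided, has a smallest possible p of 0.1 with 3 against 3 libraries, and this value was reached by the 5 called members in A1G and by the 6 called members and Rbl2 in Ptch1 tumours.

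**Figure D2:**
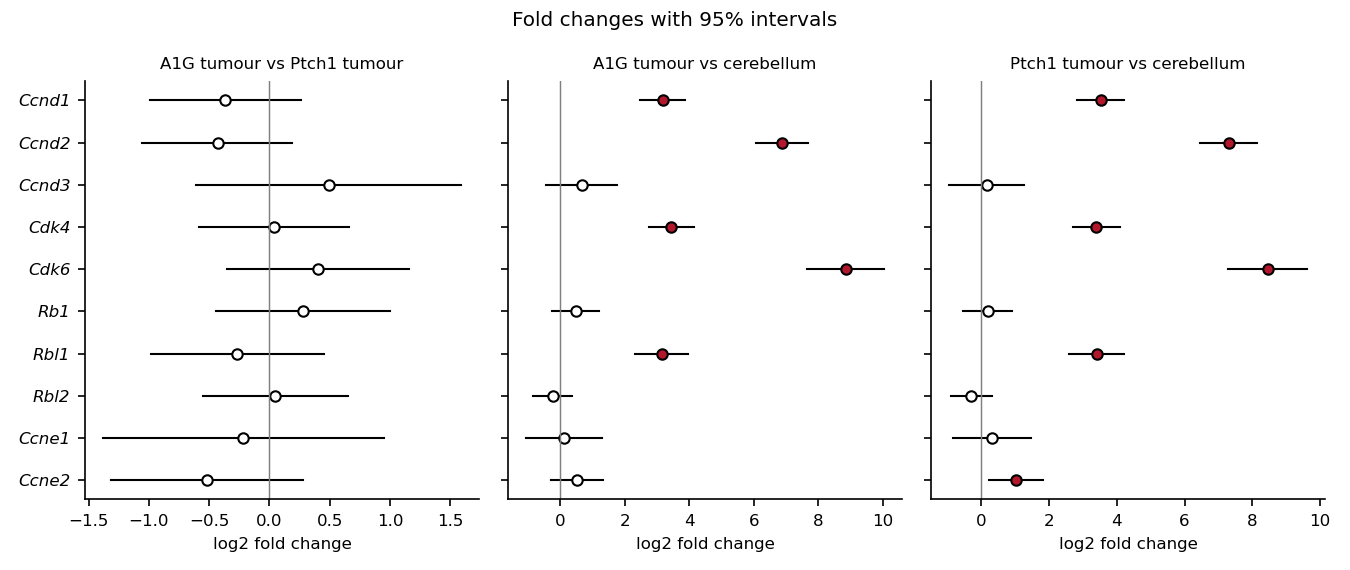
Log2 difference of each of the 10 genes for A1G against Ptch1 tumour, A1G tumour against cerebellum and Ptch1 tumour against cerebellum, from left to right. Bars show the 95% interval of the fit and filled symbols an adjusted p under 0.05. Filled symbols number 0, 5 and 6 in the 3 comparisons, with Ccnd2 and Cdk6 farthest from 0 in those with cerebellum.

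Other cell types moved with these comparisons. Summed over 7 markers, Purkinje cell genes had 381 to 689 CPM across A1G tumours, 195 to 316 CPM across Ptch1 tumours, where Pcp2 was at 0 throughout, and 8494 to 10724 CPM in cerebellum. The 7 oligodendrocyte markers summed to 331 to 432 CPM in A1G, 67.7 to 386 CPM across Ptch1 tumours and 7665 to 8183 CPM in cerebellum, and the 7 mature granule neuron markers to 382 to 1506, 193 to 1265 and 5924 to 7887 CPM. The sums of astrocyte, interneuron, endothelial, meningeal and erythrocyte markers were likewise below cerebellum without overlap in both tumour kinds. Genes lower past edgeR's test in each kind were 5 of 7 astrocyte, 7 of 7 interneuron and 3 of 7 endothelial markers. So were 4 of 7 meningeal markers and 2 of the 3 erythrocyte markers found among the listed genes. Lum, a meningeal marker, was higher in Ptch1 tumours (log2 2.13, edgeR adjusted p = 0.0323). Slc6a5 was at 0 in all tumours and Sst at 0 in A1G tumours. The sum of the 7 oligodendrocyte precursor markers went the other way. It was 482 to 985 CPM in A1G, 845 to 1146 CPM in Ptch1 tumours and 234 to 258 CPM in cerebellum. Pdgfra made up much of it, with averages of 433, 674 and 50.4 CPM in the same order. Pdgfra, Cspg4, Olig2 and C1ql1 were higher past edgeR's test in each tumour kind, and Olig1 did not pass. Sox10 and Gpr17 were lower in Ptch1 tumours (log2 -1.77 and -1.83, edgeR adjusted p = 0.00819 and 0.0277). Microglia and macrophage markers summed to 209 to 323 CPM in A1G tumours, without overlap, and to 132 to 229.9 CPM in Ptch1 tumours, against 119.8 to 147 CPM in cerebellum. Of these markers, Aif1, C1qa and C1qb were higher past edgeR's test in each tumour kind, while Csf1r, P2ry12 and Tmem119 passed in neither. Cx3cr1 did not pass in A1G tumours and was lower in Ptch1 tumours (log2 -1.01, edgeR adjusted p = 0.0345). The sum of pericyte markers overlapped cerebellum in A1G tumours (80.5 to 245 CPM) and was lower in Ptch1 tumours (51.7 to 108 CPM), against 115 to 146 CPM. Of the 7 granule neuron progenitor markers, Atoh1, Barhl1, Pax6 and Meis1 were higher past edgeR's test in each tumour kind. Atoh1 averaged 445 CPM across A1G tumours, 337 CPM across Ptch1 tumours and 8.80 CPM in cerebellum, and Barhl1 356, 252 and 15.6 CPM. As ATOH1 is named as a driver in the A1G model, Atoh1 is no independent marker of cell identity there. The labels do not say whether its fragments include an engineered copy. Zic1, Zic2 and Neurod1 did not pass, and with Zic1 at 1209 CPM and Neurod1 at 1002 CPM in cerebellum the list's sum overlapped there, at 2676 to 5279.6 CPM in A1G, 3166 to 4725 CPM in Ptch1 tumours and 2224 to 3707 CPM in cerebellum. The part of these shifts in the 10 genes was not tested. In bulk RNA, fewer cells of a type and less RNA per cell cannot be told apart.

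The make-up of each family was set out within libraries, from the deposited FPKM, since levels of different genes compare only per length. Of the summed D cyclin FPKM, Ccnd2 made up 57.4 ± 2.63% in A1G tumours, 60.0 ± 1.43% in Ptch1 tumours and 6.49 ± 0.106% in cerebellum (SD, n = 3 each). Ccnd1 made up 37.6 ± 2.73%, 37.7 ± 0.903% and 57.3 ± 6.32% in the same order, and Ccnd3 4.97 ± 4.13%, 2.29 ± 0.856% and 36.2 ± 6.22%. Thus the leading D cyclin by FPKM was Ccnd2 in each of the 6 tumour libraries and Ccnd1 in each of the 3 cerebellum libraries. The FPKM ratio of Ccnd2 to Ccnd1 was 1.40, 1.57 and 1.62 in A1G tumours, 1.67, 1.53 and 1.59 in Ptch1 tumours and 0.102, 0.110 and 0.131 in cerebellum. It varied little within a group, although Ccnd2 itself ranged 2.27-fold in CPM over the tumour libraries.

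**Figure D3:**
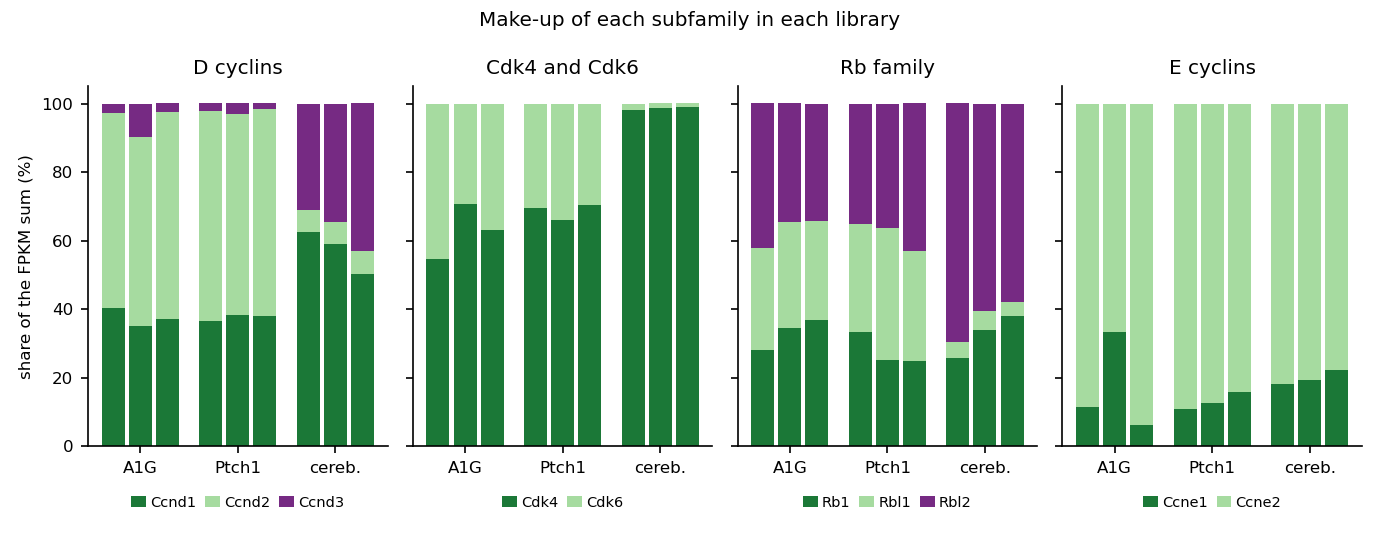
Share of each gene in the FPKM summed over its family (percent, stacked to 100), for every library of A1G tumours, Ptch1 tumours and cerebellum. Ccnd2, Cdk6 and Rbl1 take larger shares in all 6 tumour libraries than in any of the 3 cerebellum libraries, and the E cyclin shares overlap between A1G tumours and cerebellum.

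Cdk4 was the more abundant kinase transcript in all 9 libraries. Cdk6 took 45.3%, 29.3% and 36.8% of the summed FPKM of both kinases in A1G tumours, 30.4%, 34.0% and 29.6% in Ptch1 tumours and 1.77%, 1.23% and 1.04% in cerebellum. The size of that share depends on the length assigned to Cdk6: with fragments per kilobase of the longest coding transcript (11525 bases) the means were 17.5%, 13.9% and 0.480%, against 37.1%, 31.3% and 1.35% from FPKM, in the same order of groups. In the retinoblastoma family, Rbl1 took 29.8 ± 1.12% in A1G tumours, 34.0 ± 3.82% in Ptch1 tumours and 4.77 ± 0.723% in cerebellum. Rbl2 took 37.0 ± 4.43%, 38.1 ± 4.26% and 62.7 ± 6.22%, and Rb1 33.2 ± 4.52%, 27.9 ± 4.70% and 32.5 ± 6.19%. The ratio of Rbl1 to Rbl2 was 0.703 to 0.892 in A1G and 0.746 to 1.06 in Ptch1 tumours, against 0.0649 to 0.0924 in cerebellum. The length behind the FPKM of Rbl1 varied between libraries, and with the longest coding transcript its share was 23.5%, 28.8% and 3.52%. Ccne2 made up most of the E cyclin FPKM in every library, 82.8 ± 14.4% in A1G tumours, 86.8 ± 2.53% in Ptch1 tumours and 80.1 ± 2.12% in cerebellum. Its share was lowest in A1G replicate 2, at 66.5%, where Ccnd3 also took its largest tumour share, 9.73%.

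Ordered by FPKM, Cdk4 led in A1G tumours at 209 ± 50.1, followed by Ccnd2 at 169.6 ± 44.1, Cdk6 at 125 ± 49.2 and Ccnd1 at 112 ± 36.3 (SD, n = 3). The library ranges of neighbours among these 4 overlapped, and only the step from Ccnd2 to Cdk6 held within each of the 3 libraries. The other 6 genes averaged 3.66 FPKM (Ccne1) to 20.1 FPKM (Ccne2), below the lowest Ccnd1 library. In Ptch1 tumours the same 4 genes led, with Ccnd2 at 226 ± 36.5, Cdk4 at 199 ± 58.5, Ccnd1 at 142 ± 29.3 and Cdk6 at 92.8 ± 37.9, and this order held within each of the 3 libraries although the ranges of neighbours overlapped between libraries. In cerebellum Cdk4 was first at 18.6 ± 2.13 and Rbl2 second at 17.1 ± 1.79, with overlapping ranges, while Ccnd2 at 1.39 ± 0.291 and Rbl1 at 1.31 ± 0.218 were near the end and Cdk6 last at 0.256 ± 0.0835. Tumour and cerebellum FPKM were scaled separately, so these orders hold within a group.

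The comparison of A1G with Ptch1 tumours asked whether the added alleles went with another level of these genes. Of the 10 members 0 passed edgeR's test, where 0.0139% of all tested genes did, and 0 had an unadjusted p under 0.05, where 10.6% of all tested genes did. DESeq2 on the same counts also called 0 members. The libraries of both kinds overlapped for all 10, while 15.5% of all tested genes did not overlap. The log2 difference, A1G minus Ptch1, was -0.37 for Ccnd1 (95% interval -0.99 to 0.26; edgeR, adjusted p = 0.676) and -0.43 for Ccnd2 (-1.06 to 0.19; edgeR, adjusted p = 0.615). Ccnd3 differed by 0.49 (-0.61 to 1.59; edgeR, adjusted p = 0.759), and without A1G replicate 2 by -0.11. Cdk4 differed by 0.04 (-0.58 to 0.66; edgeR, adjusted p = 0.979) and Cdk6 by 0.40 (-0.35 to 1.16; edgeR, adjusted p = 0.707). For Rb1, Rbl1 and Rbl2 the differences were 0.28 (-0.44 to 1.0), -0.27 (-0.98 to 0.45) and 0.05 (-0.55 to 0.65), and for Ccne1 and Ccne2 -0.22 (-1.38 to 0.95) and -0.52 (-1.31 to 0.28). A log2 difference of 1 is 2-fold. The lower bounds of Ccnd2, Ccne1 and Ccne2 lay beyond -1 and the upper bounds of Ccnd3 and Cdk6 beyond 1, so that differences of that size remain possible for these genes in those directions. Markers of normal cells also differed between the tumour kinds. All 7 Purkinje and all 7 oligodendrocyte markers were higher in A1G tumours, with median log2 differences of 1.57 and 1.41. Of the meningeal markers 1 of 7 was higher (median -0.66). Calb1, a Purkinje marker, passed the test (3.81; edgeR, adjusted p = 0.00627). The part of such shifts in the 10 genes was not tested.

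Variation among the tumours was also described by library. Over the 6 tumour libraries, the ratio of the highest to the lowest CPM ran from 1.78 for Cdk4 to 4.01 for Ccnd3. A1G replicate 2 was the lowest tumour library for 5 members (Ccnd1, Ccnd2, Rbl1, Rbl2 and Ccne2) and the highest for Ccnd3 and Ccne1. Ptch1 replicate 2, the deepest library, was the highest for 5 (Ccnd1, Ccnd2, Cdk4, Rbl1 and Ccne2). Such counts were not made over all tested genes, so a pattern particular to the members is not shown. Across genes, A1G replicate 2 had Spearman correlations of 0.887 and 0.9 with A1G replicates 1 and 3. A1G replicates 1 and 3 correlated at 0.942. Mki67, the proliferation antigen, was at 3475, 620.3 and 2597 CPM across A1G tumours, at 3433, 3946 and 3913 CPM across Ptch1 tumours and at 5.51, 7.30 and 3.79 CPM in cerebellum, so A1G replicate 2 was the lowest tumour library there too. Its part in the levels of the 10 genes was not tested. Without A1G replicate 2 all 5 calls against cerebellum held.

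The wider pathway was followed through lists of related genes, each set beside the shares of all tested genes given above. These lists too were chosen with earlier results of these data known, so their counts are a description. Upstream of the D cyclins, the list held Mycn, Myc, Atoh1 and the Hedgehog pathway genes Gli1, Gli2, Smo and Ptch1. Of these 7, 6 were higher than cerebellum in each tumour kind and 0 lower. For Atoh1 in A1G tumours, the limit given above for the driver of that model applies here too. The exception was Ptch1, the receptor that holds the pathway in check and the gene disrupted in all tumours. Ptch1 averaged 146 CPM across A1G tumours, 75.0 CPM across Ptch1 tumours and 114 CPM in cerebellum (edgeR, adjusted p = 0.660 and 0.421). These counts hold both copies of the gene together. Mycn, the Myc family factor of granule neuron progenitors, averaged 426 CPM across A1G tumours, 496 CPM across Ptch1 tumours and 8.64 CPM in cerebellum, log2 differences of 5.61 (SE 0.31; edgeR, adjusted p = 6.63e-07) and 5.83 (SE 0.31; edgeR, adjusted p = 2.06e-07). Gli1, the transcription factor induced by Hedgehog signalling, differed by 3.64 and 4.04, from an average of 11.9 CPM in cerebellum (edgeR, adjusted p = 7.55e-06 and 2.82e-06).

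Among the Cdk inhibitors, which brake these kinases, 4 of 7 were also higher in each tumour kind and 0 lower, with a median log2 difference of 1.09 in A1G and 1.76 in Ptch1 tumours. Cdkn2c, p18, which binds Cdk4 and Cdk6, averaged 29.8 CPM across A1G tumours, 45.4 CPM across Ptch1 tumours and 3.17 CPM in cerebellum (edgeR, adjusted p = 3.72e-04 and 8.01e-05). Cdkn1b, p27, averaged 382, 609 and 179.5 CPM in the same groups (edgeR, adjusted p = 0.00343 and 1.10e-04). Cdkn2b, p15, averaged 17.4 CPM across A1G tumours and 0.724 CPM in cerebellum (edgeR, adjusted p = 5.29e-04). Cdkn2a, named after its values were seen, had 2.47 to 13.1 CPM across A1G tumours and 4.12 to 38.7 CPM across Ptch1 tumours, a wide spread, and no fragment in cerebellum, where 3 fragments are worth 0.599 to 0.912 CPM.

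Of the E2f and Dp factors, only some of which are held by the retinoblastoma family, 7 of 10 were higher in each tumour kind and 0 lower. E2f1, an activator of S phase genes, averaged 33.8 CPM across A1G tumours, 45.8 CPM across Ptch1 tumours and 1.83 CPM in cerebellum, log2 differences of 4.15 and 4.59 (edgeR, adjusted p = 4.69e-05 and 1.60e-05). E2f8, a repressor that rises late in S phase, was covered by 293 fragments in A1G tumours and 4 in cerebellum (ratio 106, 95% interval 41.0 to 392) and by 778 against 4 in Ptch1 tumours (ratio 148, 57.7 to 546). Of the genes listed for the MuvB and DREAM complexes, only some of them partners of p107 and p130, 5 of 8 were higher in each tumour kind and 0 lower. Mybl2 and Foxm1, which join MuvB in dividing cells, differed by 4.94 and 6.12 in A1G and by 5.47 and 6.71 in Ptch1 tumours on the log2 scale (edgeR, adjusted p from 1.59e-05 to 1.60e-04).

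Downstream, all 18 listed S phase targets of E2F were higher in each tumour kind, with medians of 3.77 in A1G and 4.23 in Ptch1 tumours. Mcm6 and Mcm3, subunits of the replicative helicase, differed by 5.99 and 5.34 in A1G and by 6.48 and 5.89 in Ptch1 tumours (edgeR, adjusted p from 4.48e-07 to 2.18e-06). Among other cyclins, Cdks and their regulators (Wee1, the Cdc25 phosphatases, the Cks adaptors and Mnat1), 13 of 16 were higher in each kind and 0 lower. Cdk2, the partner of the E cyclins, averaged 42.6 CPM across A1G tumours, 43.1 CPM across Ptch1 tumours and 1.54 CPM in cerebellum (edgeR, adjusted p = 6.80e-06 and 4.21e-06). Ccnb1, the mitotic cyclin B1, had 304 fragments in A1G tumours and 740 in Ptch1 tumours against 1 in cerebellum, ratios of 441 (95% interval 78.5 to 17462) and 564 (101 to 22311). The list median was 3.58 in A1G and 3.91 in Ptch1 tumours, and 3.58 and 3.41 with Cdc25c, which had no fragment in cerebellum and is named for that reason, set at its lower bound.

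Of the 10 genes of cyclin degradation, 1 was higher and 2 lower in A1G and 2 higher and 2 lower in Ptch1 tumours. Their medians were -0.05 and 0.03. Of all tested genes, 16.3% were higher and 16.1% lower in A1G, and 20.2% and 19.7% in Ptch1 tumours. The counts of this list are near those shares, so no trait of its own is shown. Skp2, which marks p27 for destruction, was higher by 2.12 in A1G and 2.14 in Ptch1 tumours (edgeR, adjusted p = 0.00121 and 8.01e-04). Fbxw7, which marks cyclin E for destruction, was lower, with averages of 101 CPM across A1G tumours, 141 CPM across Ptch1 tumours and 307 CPM in cerebellum and log2 differences of -1.60 and -1.12 (edgeR, adjusted p = 6.45e-04 and 0.00433). Between A1G and Ptch1 tumours 0 genes of any of these 7 lists passed edgeR's test, where 0.0139% of all tested genes did. The largest list medians there were -0.61 for the Cdk inhibitors and -0.54 for the S phase targets, against 0.02 for all tested genes. Cdkn1b averaged 382 CPM across A1G and 609 CPM across Ptch1 tumours without overlap (log2 -0.67; edgeR, adjusted p = 0.349), and Rrm1, a ribonucleotide reductase subunit, 275 and 409 CPM, also without overlap (-0.57; edgeR, adjusted p = 0.489). The other genes named there by the same rule had log2 differences of -0.79 (Cul1, a scaffold of cullin ubiquitin ligases) to 0.55 (Rbbp4, a histone-binding subunit of MuvB), with 0 past the test.

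**Figure D4:**
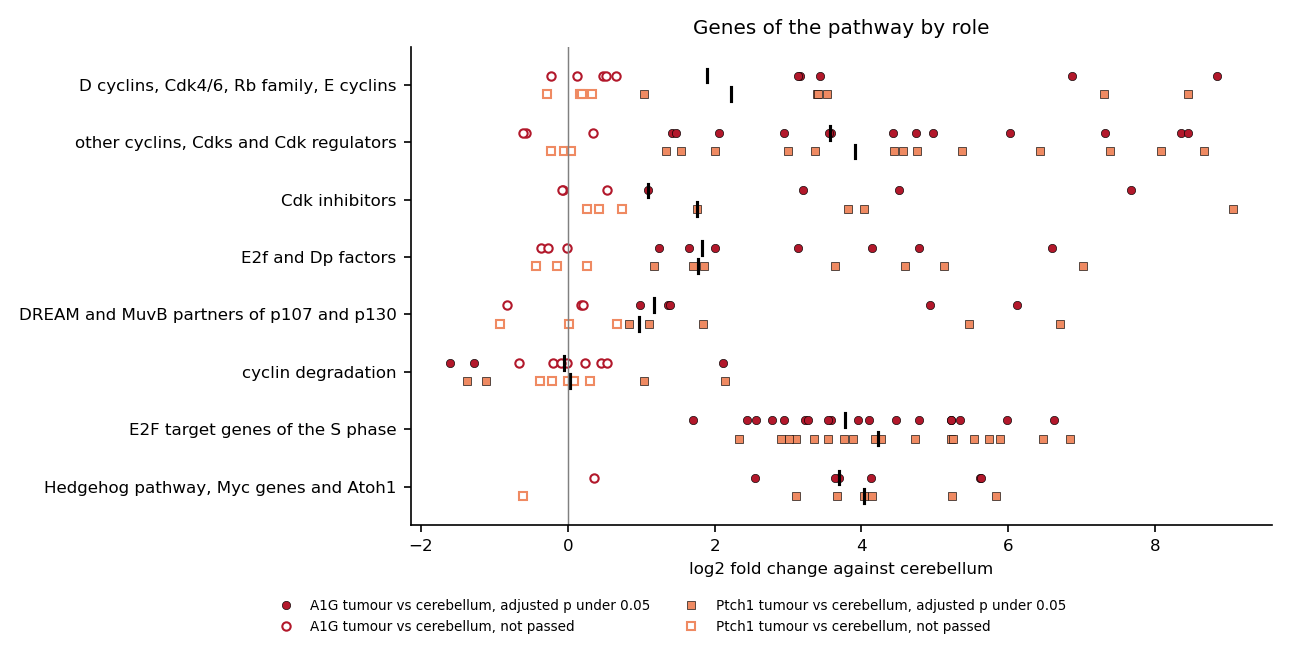
Log2 difference from cerebellum of every gene in the 10-member set and in 7 related lists, with A1G tumours as circles above Ptch1 tumours as squares, filled where the adjusted p was under 0.05, and a black tick at the list median. All 18 S phase targets are filled in both tumour kinds, while the genes of cyclin degradation lie on both sides of 0. Cdc25c and Cdkn2a had no fragment in cerebellum, so their plotted values depend on the prior count of the fit.

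Patterns across the 9 libraries were compared as a description, by Pearson's r of log2(CPM + 1) with genes averaging at least 10 CPM. The points form a tumour and a cerebellum cluster, so a high r reflects that split, and 1007 to 1134 genes had r above 0.9 with each of the 5 members called in A1G tumours. Closest to Ccnd2 were Top2a, Hist1h3c and Kif20a (r = 0.999, 0.998 and 0.998), and closest to Ccnd1 were Ercc6l, Ccnb1 and Aspm (0.999, 0.996 and 0.996). Cdk1, Gpr153 and Mical1 were closest to Cdk4 (0.998, 0.997 and 0.996), Cxcr4, Cenpa and Cdca5 to Cdk6 (0.998, 0.997 and 0.996), and Eda2r, Fam126a and Ttf2 to Rbl1 (0.998, 0.996 and 0.996). For Ccne2 the closest were Stag2, Dstn and Zfp131 (0.982, 0.975 and 0.975), with 120 genes above 0.9. Ccnd3 was closest to Brd2, Lepre1 and Cttnbp2 (0.962, 0.949 and 0.948), Rb1 to Msl2, Abi2 and Kat6b (0.951, 0.923 and 0.916), Rbl2 to E2f6, Acvr1 and Rasip1 (0.958, 0.906 and 0.898) and Ccne1 to Hsd17b4, Cnpy3 and Sod1 (0.954, 0.953 and 0.922), each with 2 to 16 genes above 0.9.

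Several members share exon bases with a gene on the opposite strand, and strand use in counting was not given in the sources used here. The largest overlaps were 23.4% of exon bases for Ccnd1 with Oraov1, 19.7% for Cdk4 with Tspan31 and 17.4% for Ccne2 with Ints8. Rbl2 shared 11.8% with Gm45464 and 9.17% with Aktip, and Rb1 shared 8.11% with Rcbtb2 and 6.78% with Lpar6. Ccnd2, Ccnd3 and Cdk6 had smaller overlaps. Oraov1 had 12.3 to 25.6 CPM across A1G tumours, 16.1 to 23.4 CPM across Ptch1 tumours and 13.6 to 17.9 CPM in cerebellum. Tspan31 had 55.2 to 71.1, 54.0 to 77.3 and 35.9 to 51.2 CPM in those groups, and Ints8 11.5 to 37.6, 17.6 to 41.9 and 14.6 to 17.0 CPM. Reads of such pairs cannot be told apart where strand was not used.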

How the data were processed

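RNA of 9 libraries was analysed, 3 per group, made from ribosome-depleted total RNA and sequenced on Ion Proton chips that took 3 libraries each, per the labels' protocols. The allocation of libraries to chips was not given in the sources used here. Genome build mm10 and Bowtie 0.12.2 are named in the submitters' processing notes, without their step; the annotation and the counting tool are not given. The expected counts are raw fragments per gene as assigned by the authors, per the file headers, with values that were not whole (tolerance 1e-06) for 1147 to 1440 genes of a library. The deposited signal columns hold those fragments after scaling by the authors. The deposited FPKM values were computed by the authors from the scaled fragments, separately for tumours and cerebellum.

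Fragments were rounded to whole numbers. Genes that reached an FPKM of 1 in 3 or more libraries were tested with edgeR 4.0.16 (R 4.3.3), TMM scaling, 1 mean per group over all 9 libraries and the quasi-likelihood test. P-values were adjusted by the Benjamini-Hochberg method over all genes tested, with a threshold of 0.05. Alternatives used DESeq2 1.42.0 and limma 3.58.1, and the fit was tested on simulated data. Intervals of pooled fragment ratios and floors (3 fragments, 0.337 to 1.23 CPM) cover counting error only, while intervals of log2 differences come from the fit and the spread between libraries. Replicates had Spearman correlations of 0.887 to 0.968 across genes. Gene positions are from GENCODE M21 on mm10 and promoters from RefSeq on GRCm38.p6. Members and gene lists were chosen with earlier results of these data known. Named are all members, the 2 genes of each list with the smallest adjusted p in a comparison (the 2 most abundant where none passed), Mycn, Gli1 and Mki67, and the 3 genes closest to each member, predicted genes known by a number or code left out. Cdkn2a, Cdc25c, Ptch1, the marker genes and the opposite-strand neighbours are named outside this rule, after their values were seen.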

Additional observations from a re-analysis of the deposited data

How the results depend on the processing

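Each log2 difference was recomputed under 18 alternatives: other scalings, filters, tools and pseudocounts, the 6 compared libraries alone, a replicate block, and each library left out. The calls of Ccnd1, Ccnd2, Cdk4, Cdk6 and Rbl1 against cerebellum held in all of them for both tumour kinds. The difference of Cdk6 ran from 7.41 to 9.10 in A1G and from 7.0 to 8.69 in Ptch1 tumours, lowest with limma on log2(CPM + 1), which shrinks genes near 0. Between the tumour kinds 0 members were called in any. The Ptch1 count against cerebellum was 6, and 5 to 6 with 1 library left out, where Ccne2 (1.04) was lost without Ptch1 replicate 1 (1.07), Ptch1 replicate 2 (0.76), cerebellum replicate 2 (1.06) or cerebellum replicate 3 (0.81). Only uncalled differences changed sign. Ccne1 between A1G tumours and cerebellum (0.12) was -0.04 and -0.06 with limma on log2(CPM + 1) and log2(CPM + 0.5), -0.02 with a replicate block, and -0.48 to 0.45 with 1 library left out. Ccnd3 between Ptch1 tumours and cerebellum (0.17) was -0.01 with a replicate block and -0.43 to 0.51 with 1 library left out, and Rb1 there (0.20) was -0.03 to 0.49. Between the tumour kinds, leaving out 1 library gave -0.13 to 0.32 for Cdk4 (0.04), -0.21 to 0.26 for Rbl2 (0.05), -0.11 to 1.09 for Ccnd3 (0.49) and -0.81 to 0.12 for Ccne1 (-0.22). The cause of these changes was not tested. Replicate numbers were not shown to pair the samples. Correlations of deviations were -0.0691 to 0.211 for pairs of the same number (3 of 9 over 0.1) and -0.253 to 0.239 for other pairs. Pairing by chip is unknown, since the allocation was not given. The replicate block called 0 members for A1G against Ptch1 tumours, 5 for A1G tumours against cerebellum and 6 for Ptch1 tumours against cerebellum.

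Over all genes, 2 were called between the tumour kinds, both higher in A1G tumours, with the Purkinje marker Calb1 among them. The count was 81 without a filter (72 higher, 9 lower), 163 with DESeq2 (65.6% of them higher), 0 with the 6 tumour libraries alone and 0 to 4 with 1 library left out. Scaling by library total put the median of all genes at 0.13 in both A1G comparisons, against 0.02 for A1G against Ptch1 tumours and 0.03 for A1G tumours against cerebellum, and called 0, 5 and 6 members. Family shares depend on the lengths used: by the longest coding transcript, Rbl1 took 23.5% in A1G tumours, 28.8% in Ptch1 tumours and 3.52% in cerebellum. Depth limits Cdk6 in cerebellum and Ccne1 in all groups.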

Other observations

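The ratio of fragments to FPKM, set against that of Rb1 in the same library, is the length behind the FPKM relative to that of Rb1. It was the same in all 9 libraries for Ccnd1, Ccnd2, Cdk4, Cdk6, Rbl2 and Ccne1 to the 4 digits kept. For Rbl1 it ran from 0.7263 to 0.8138 in A1G tumours, from 0.7645 to 0.8771 in Ptch1 tumours and from 0.6574 to 0.8951 in cerebellum. For Ccnd3 and Ccne2 the range was small, 0.4018 to 0.4056 and 0.6366 to 0.6378 in A1G tumours.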
